A study of Homo sapiens with 33 samples.

Results

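H3K27me3 at transcription start sites was compared between human embryonic stem cells (ESCs) in which EZH2 had been lost and then re-expressed and the wild-type ESCs they came from. Each member was a 5 kb window reaching 2.5 kb to either side of an annotated start site. Of the 153958 windows in the ChIP-seq table, 149487 lay on chromosomes 1 to 22, and these carried 34450 gene names. The measured difference was the H3K27me3 level of the restored cells minus that of wild type, in log2 RPM (reads per 1e6 mapped reads), with non-precipitated input chromatin of both genotypes as the control. A difference of 1 on this scale is a change of 2-fold.

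All cells were H9, an established human ESC line grown on irradiated mouse embryonic fibroblasts, and were sorted for the surface antigen SSEA4 before chromatin or RNA was taken. The 4 genotypes were EZH2+/+ (wild type), EZH2-/+ (1 allele disrupted with CRISPR/Cas9), EZH2-/- (both alleles disrupted) and EZH2-/- +EZH2 (both alleles disrupted, with a doxycycline-inducible piggyBac EZH2 transgene switched on). The transgene was put into a heterozygous line before its remaining allele was disrupted, and EZH2-/- cells are the same line later grown without doxycycline. Genotype and the history of a single derived line therefore cannot be told apart. For H3K27me3 and input, each genotype had 1 table column, whose low values step like an average of 2 libraries taken after the logarithm, so no test between genotypes was possible and no p is given for ChIP-seq. RNA-seq had 3 libraries per genotype. With M for 1e6 reads, the depth recovered per library was 9.11 M (wild type) and 15.1 M (restored) for H3K27me3. For input it was 23.8 M and 19.2 M per library, and the RNA libraries held 25 M to 56.8 M.

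EZH2 is the catalytic subunit of Polycomb repressive complex 2 (PRC2), which places 3 methyl groups on lysine 27 of histone H3. H3K27me3 accumulates over CpG-rich promoters of silent developmental regulators in ESCs, where it often lies together with H3K4me3, a mark of promoters, and it excludes acetylation of the same lysine, H3K27ac. PRC2 is recruited mainly to unmethylated CpG islands and binds the mark that it makes, which helps the mark to be copied after DNA replication.

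Promoters of genes with lower and with higher H3K27me3 are shown to make their base composition visible. In RefSeq promoter sequences (GRCh38.p14, from 250 bases before to 50 bases after the start site), CG dinucleotides, which read the same on both strands, are in capitals. The first 3 had less H3K27me3 in the restored cells than in wild type. GALNT3 (chr2:165794198-165794497, minus strand) encodes an enzyme that starts O-linked glycosylation, NODAL (chr10:70441632-70441931, minus strand) a TGF-beta family signal of the early embryo, and PRAC1 (chr17:48722469-48722768, minus strand) a small nuclear protein encoded beside HOXB13.
GALNT3: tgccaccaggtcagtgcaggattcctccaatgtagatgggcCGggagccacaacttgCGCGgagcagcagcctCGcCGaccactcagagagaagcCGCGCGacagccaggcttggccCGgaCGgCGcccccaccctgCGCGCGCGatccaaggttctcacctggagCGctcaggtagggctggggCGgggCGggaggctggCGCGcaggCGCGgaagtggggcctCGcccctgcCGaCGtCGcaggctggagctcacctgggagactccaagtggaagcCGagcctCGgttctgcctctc
NODAL: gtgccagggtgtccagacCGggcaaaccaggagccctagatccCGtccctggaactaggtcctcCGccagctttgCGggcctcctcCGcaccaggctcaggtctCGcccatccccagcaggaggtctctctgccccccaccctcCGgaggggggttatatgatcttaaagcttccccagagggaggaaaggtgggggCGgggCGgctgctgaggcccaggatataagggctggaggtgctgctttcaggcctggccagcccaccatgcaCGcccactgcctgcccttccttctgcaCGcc
PRAC1: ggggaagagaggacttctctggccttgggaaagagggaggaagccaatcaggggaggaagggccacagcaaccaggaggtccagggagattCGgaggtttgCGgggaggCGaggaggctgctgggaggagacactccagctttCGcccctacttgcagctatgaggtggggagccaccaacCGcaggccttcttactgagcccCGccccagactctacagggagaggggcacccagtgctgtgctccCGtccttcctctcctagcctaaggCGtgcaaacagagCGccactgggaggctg

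The next 3 had more H3K27me3 in the restored cells. SSTR5 (chr16:1078576-1078875, plus strand) encodes a somatostatin receptor, EFNA2 (chr19:1285623-1285922, plus strand) an ephrin ligand, and MEIS2 (chr15:37099057-37099356, minus strand) a homeodomain partner of HOX proteins.
SSTR5: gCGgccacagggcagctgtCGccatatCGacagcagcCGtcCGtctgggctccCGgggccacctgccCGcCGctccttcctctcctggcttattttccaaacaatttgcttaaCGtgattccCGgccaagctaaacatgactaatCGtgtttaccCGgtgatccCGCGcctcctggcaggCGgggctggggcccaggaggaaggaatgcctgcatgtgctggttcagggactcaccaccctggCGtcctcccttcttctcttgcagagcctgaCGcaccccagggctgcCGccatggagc
EFNA2: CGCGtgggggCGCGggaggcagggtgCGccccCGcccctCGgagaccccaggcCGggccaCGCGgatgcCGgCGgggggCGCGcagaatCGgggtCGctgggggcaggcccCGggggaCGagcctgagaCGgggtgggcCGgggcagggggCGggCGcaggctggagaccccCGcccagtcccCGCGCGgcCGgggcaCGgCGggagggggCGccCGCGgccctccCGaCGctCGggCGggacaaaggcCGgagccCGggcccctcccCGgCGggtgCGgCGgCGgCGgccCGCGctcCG
MEIS2: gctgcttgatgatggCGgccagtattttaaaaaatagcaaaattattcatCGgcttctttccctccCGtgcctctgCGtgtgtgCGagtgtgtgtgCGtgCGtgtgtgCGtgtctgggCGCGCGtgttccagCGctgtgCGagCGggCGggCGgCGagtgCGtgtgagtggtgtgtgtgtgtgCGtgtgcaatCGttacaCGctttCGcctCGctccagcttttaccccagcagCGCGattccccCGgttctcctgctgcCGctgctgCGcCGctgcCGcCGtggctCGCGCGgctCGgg
GALNT3 held 28 CG dinucleotides, NODAL 11 and PRAC1 9, and SSTR5, EFNA2 and MEIS2 held 18, 47 and 35. The median over all 26246 RefSeq promoters of this length was 14, and 41.4% of them held at least 20. NODAL and PRAC1 were thus below this median and the other 4 above it. The share with at least 20 was 66.7% of the 150 matched promoters among 293 gene names with less H3K27me3 by 1 or more in restored cells, 40.0% of the 35 matched among 72 with more, and 65.4% of the 3307 matched among the 5862 well-marked names from which both were taken.

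EZH2 RNA gave the check of the genotypes. The 3 wild-type libraries had 68.6, 63.3 and 59.5 RPM, the heterozygous libraries 55.4, 52.3 and 45.7 RPM, the knockout libraries 11.5, 8.65 and 9.68 RPM and the restored libraries 271, 385 and 256 RPM. All restored libraries, which can include transgene reads, lay above all wild-type libraries. The 8 ESC markers were all above 1 RPM in every library of both genotypes, and their sum was 2357 to 2978 RPM in wild type and 3495 to 4140 RPM in restored cells. The 5 neuroectoderm markers summed to 8.19 to 20.2 RPM in wild type and 1.47 to 2.44 RPM in restored cells, with NEUROG2 near 0 in both. Fibroblast markers summed to 212 to 303 and 109 to 146 RPM, mostly COL1A2, with DCN near 0, and endoderm (15.9 to 41.7 against 19.7 to 53.4 RPM) and mesoderm markers (13.2 to 29.5 against 14.0 to 73.9 RPM) overlapped between the genotypes. The part of these markers in the results was not tested. In bulk samples, fewer cells with a mark or transcript and less of it per cell cannot be told apart.

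Restored cells carried H3K27me3 at most of the promoters marked in wild type, at a slightly lower level. Windows were called marked when H3K27me3 exceeded 5.36 RPM (a log2 RPM per kb of 0.1) and input lay below this value in EZH2-/+ cells, which take no part in the comparison. Over these 17780 marked windows, the median level was 11.4 RPM in wild type, 11.7 RPM in EZH2-/+, 0.812 RPM in EZH2-/- cells and 8.91 RPM in restored cells. The distance from the EZH2-/- level to the wild-type level was covered to a median of 80.2% (quartiles 65.4% and 94.2%). The median difference between restored cells and wild type was -0.29, with quartiles of -0.54 and -0.08, and 82.0% of marked windows were below 0. Windows that were not marked had a median difference of -0.26, and the marked windows, centred on these, differed by -0.027. The unmarked windows had medians of 1.34 RPM in wild type, 0.789 RPM in EZH2-/- and 1.12 RPM in restored cells. Their median recovery was 55.9%. Centring may therefore also remove a difference in H3K27me3, which was not tested.

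Input differed much less. Its median difference was 0.04 over all windows and 0.07 over marked windows, and its SD over all windows of 0.275 was close to the 0.254 that counting error alone gives at these depths. H3K27me3 differences of marked windows had an SD of 0.429 against a counting error of 0.134. Counting error covers the reads and not the variation between cultures, libraries or precipitations, which 1 column per genotype does not show. Of all windows, 7.23% were lower and 2.09% higher by 1 or more in H3K27me3, and for input these shares were 0.0234% and 0.0696%. Most of these windows were not marked. Of marked windows, 4.49% were lower and 0.84% higher in H3K27me3. Windows that were not marked, with 0.5 to 4 RPM of input, had shares of 7.60% and 2.26% at a larger counting error of 0.389.

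Which genotype was used to call marked windows shifted these numbers. Called in wild type, 18559 windows had a median difference of -0.34, with 1416 lower and 68 higher by 1 or more. Called in restored cells, 14677 windows had a median of -0.22, with 339 lower and 302 higher. Both rules shared 13943 windows, 75.1% of the windows called in wild type and 95.0% of those called in restored cells. The 4616 windows called in wild type and not in restored cells were weakly marked, with a median of 6.43 RPM in wild type and 4.17 RPM in restored cells. The 734 called in restored cells and not in wild type had 4.37 and 6.16 RPM.

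The share of each library in start-site windows moved the same way. In 53993 windows that do not overlap (270 Mb in all), 14.7% of wild-type H3K27me3 reads and 12.4% of restored reads fell inside, against 14.5% in EZH2-/+, 5.55% in EZH2-/- and 8.86% and 8.92% of the wild-type and restored inputs. Within the 4818 marked windows among them (24.1 Mb), the shares were 7.17% in wild type and 6.10% in restored cells. RPM is relative to each library, so that an equal change at every position would not be seen on this scale.

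**Figure D1:**
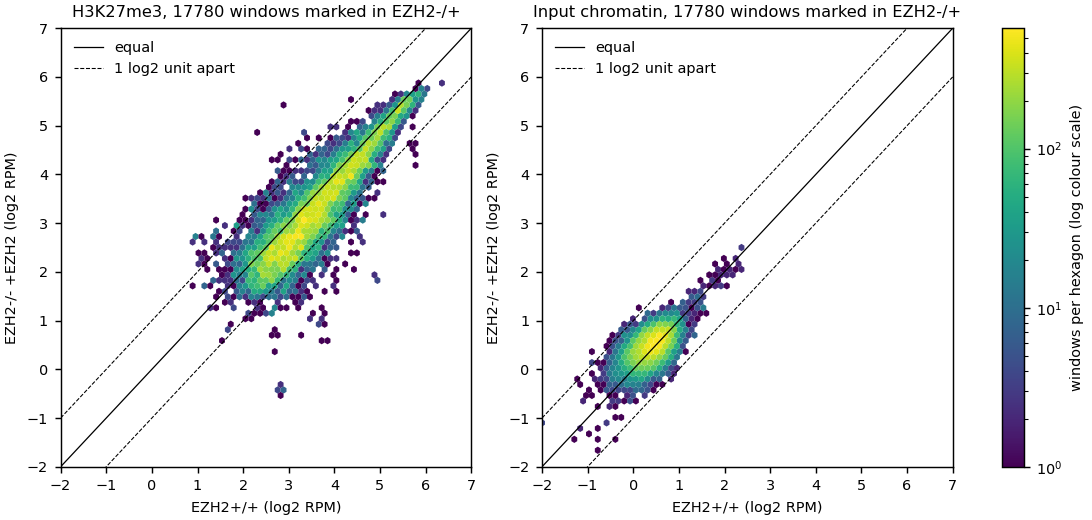
H3K27me3 (left) and input (right) in EZH2-/- +EZH2 (y axis) against EZH2+/+ (x axis), both in log2 RPM, at the 17780 windows marked in EZH2-/+. Colour gives the number of windows per hexagon on a log scale, the solid line is equality and the dashed lines are 1 log2 unit away. H3K27me3 lies just under the diagonal (median difference -0.29) and closes on it at the highest levels, while input scatters around it (median 0.07).

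Promoters with the most PRC2 came closest to wild type. Marked windows were divided into 5 groups of equal size by columns that do not enter the difference. By EZH2 occupancy in wild type, the median difference was -0.34, -0.38, -0.35, -0.27 and -0.17 from the lowest to the highest group. By H3K27me3 in EZH2-/+, it was -0.38, -0.39, -0.35, -0.27 and -0.16, and the median recovery from the EZH2-/- level was 72.2% in the lowest group and 88.9% in the highest. The share of windows lower by 1 or more was 6.27% in the lowest group by H3K27me3 and 1.04% in the highest. Median input differences were 0.05 to 0.09 in every group of both divisions.

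CpG content gave a flatter gradient. The group with the fewest CpG dinucleotides (at most 130 in 5 kb) had a median of -0.34 and the group with the most (254 or more) one of -0.21, with input at 0.03 and 0.12. The group with the most H3K4me3 in wild type, a column of only 3.43 M reads per library, had a median of -0.19 against -0.34 for the group with the least. Distance from the chromosome end made little difference to the typical marked window, with medians of -0.22 to -0.31 from the last 1 Mb to beyond 20 Mb.

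**Figure D2:**
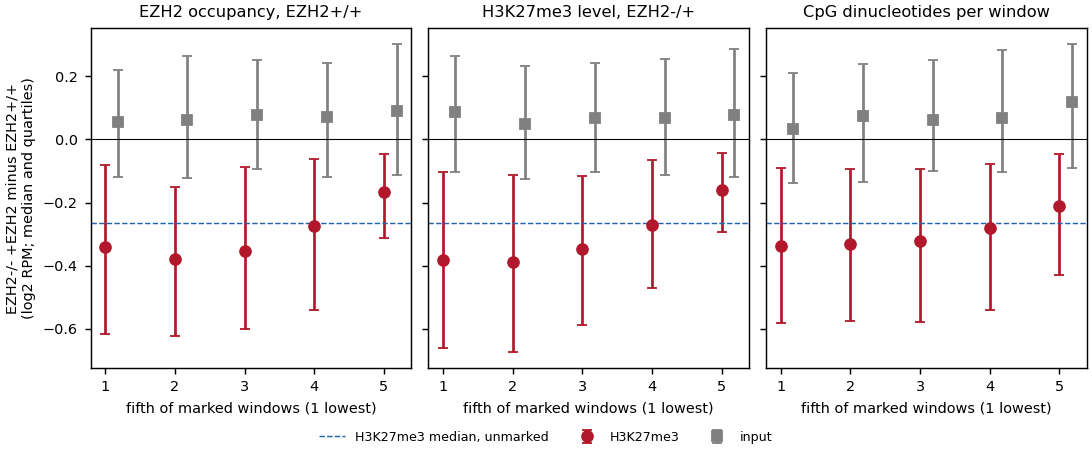
Median difference, EZH2-/- +EZH2 minus EZH2+/+ (y axis, log2 RPM, bars to the quartiles), in 5 equal groups of the marked windows by EZH2 occupancy, by H3K27me3 in EZH2-/+ and by CpG dinucleotides per window (x axis, 1 is the lowest group). Red circles are H3K27me3, grey squares are input and the dashed line is the median of windows that are not marked (-0.26). In the highest group by H3K27me3 the median was -0.16, above that line, and in the lowest it was -0.38.

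Chromosome 17 had the lowest medians before input was taken into account. Its median H3K27me3 difference was -0.42 over all 10311 windows and -0.44 over its 1257 marked windows, whereas the other chromosomes had medians of -0.17 to -0.32 over all windows and -0.17 to -0.40 over marked windows. The input difference of chromosome 17 was -0.03, the only one below 0, and those of EZH2-/- and EZH2-/+ minus wild type were -0.11 and 0.10. Between 40 and 80 Mb of chromosome 17 the 10 Mb bins had H3K27me3 medians of -0.50 to -0.58 with input medians of -0.06 to -0.19, and after input was subtracted within each genotype the medians were -0.29 to -0.44. With input subtracted over the whole chromosome, it was no longer the lowest, at -0.37 over all windows against -0.41 on chromosome 22 and -0.38 on chromosome 20, and at -0.49 over marked windows against -0.51 on chromosome 21. The genome-wide medians hardly depended on the chromosome, being -0.26 over all windows and -0.28 over marked windows without it. Its share of gene names with large decreases was higher than elsewhere and is given below.

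Some CpG-poor stretches had the opposite difference, the largest on chromosome 21. Its 133 windows between 10 and 20 Mb had a median H3K27me3 difference of 0.67 with an input difference of -0.33, and the 214 windows between 20 and 30 Mb had 0.30 and -0.08. The typical window at 10 to 20 Mb had 1.01 RPM in wild type, 0.862 RPM in EZH2-/+, 1.69 RPM in restored cells and 3.07 RPM in EZH2-/-, and the knockout was thus the highest. These windows had a median of 40 CpG dinucleotides. On chromosome 5, the 64 windows between 20 and 30 Mb had 0.33 with input at -0.16, and on chromosome 13 the 35 windows between 80 and 90 Mb had 0.33 with input at -0.05. The 9 marked windows of each chromosome 21 stretch had medians of -0.44 and -1.39.

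Developmental regulators as groups were close to wild type, with median recoveries of 89.2% in endoderm, 88.6% in mesoderm and heart, 91.6% in neural and 94.6% in kidney regulators. These lists were heavily marked, with median wild-type levels of 33.4 to 39.7 RPM. The fifth of all marked windows with the most H3K27me3 in EZH2-/+ had a similar recovery, 88.9%, so this was not particular to these regulators. Lists of related genes were compared by the median difference of their gene names, taking for each name the window with the highest mean of both genotypes. Among all 34450 names, 6.47% were lower and 1.85% higher by 1 or more. Because windows that were not marked also shifted by -0.26, a list's sign depends on whether it is read against 0 or against that shift. With centring, 14 of the 22 lists changed sign. The unmarked windows also had less H3K27me3 signal in EZH2-/- than in wild type, so that shift is not a baseline without the mark. Medians of -0.16 in 16 endoderm regulators, -0.16 in 29 mesoderm and heart regulators, -0.12 in 48 neural regulators and -0.08 in 14 kidney regulators were below 0 and became 0.11, 0.10, 0.14 and 0.19 relative to that shift. Of the 48 neural regulators, 0 were lower and 2 higher by 1 or more.

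The study's 10 example genes had a median difference of -0.12, with a range from -1.29 at POU5F1 to 0.54 at MESP1. GATA4, a regulator of heart and endoderm, had 42.4 RPM in wild type, 50.0 RPM in EZH2-/+, 2.93 RPM in EZH2-/- cells and 42.0 RPM in restored cells. SOX17, an endoderm factor, had 32.4, 38.3, 1.80 and 29.8 RPM in the same order. The mesoderm factors TBX3 and T differed between restored cells and wild type by -0.10 and -0.17, the cell cycle inhibitors CDKN2A and CDKN2B by -0.26 and -0.43, the membrane protein gene TMEM255B by -0.11 and the mesoderm factor MESP1 by 0.54 (16.0 RPM in wild type and 23.3 RPM in restored cells). Other windows of the 2 inhibitors were lower, down to -1.11 for CDKN2A and -0.64 for CDKN2B. The windows used for these inhibitors do not contain their RefSeq promoters. GAPDH, which carries no H3K27me3, had 1.51 RPM in wild type and 1.57 RPM in restored cells. POU5F1, the core pluripotency factor, was at 2.98 RPM in wild type and 1.21 RPM in restored cells, both low. Its 6 windows had a median difference of -1.07.

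The HOX clusters, which specify position along the body axis, were the most heavily marked loci of the lists. The 11 HOXA genes had a median of 46.6 RPM in wild type, 3.97 RPM in EZH2-/- cells and 47.3 RPM in restored cells, with a median difference of 0.02 that became -0.04 after subtraction of input. The 9 HOXC genes (49.3 to 60.9 RPM in wild type) had a median difference of -0.15 and the 9 HOXD genes (34.7 to 51.9 RPM) one of -0.11, both above 0 relative to the shift of unmarked windows. The HOXB cluster, on chromosome 17, had the lowest median of the 4, -0.33.

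Within HOXB the lowest values were at the ends of the cluster. HOXB3 to HOXB9 differed by -0.23 to -0.34. HOXB1 and HOXB2, at one end, had 13.9 and 18.2 RPM in wild type, 29.5 and 43.3 RPM in EZH2-/+ and 8.84 and 10.6 RPM in restored cells, differences of -0.65 and -0.78. HOXB13, set apart at the other end, had 55.1 RPM in wild type, 58.5 RPM in EZH2-/+, 1.45 RPM in EZH2-/- cells and 25.3 RPM in restored cells, a difference of -1.12. Its neighbours PRAC1 and PRAC2, whose windows overlap each other and end just before that of HOXB13, had 52.8 and 54.7 RPM in wild type and 18.3 and 23.2 RPM in restored cells. In the HOXA cluster, HOXA2 had 30.8 RPM in wild type and 40.2 RPM in restored cells, a difference of 0.39, with 48.0 RPM in EZH2-/+.

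Signal genes varied among themselves. The median of 19 WNT ligands was -0.25 and that of 29 BMP and FGF ligands -0.30, near the shift of unmarked windows, and 2 BMP and FGF ligands were lower by 1 or more, a share near the 6.47% of all names. Of the 19 WNT ligands 3 were lower and 1, WNT8A, was higher (1.05), where 6.47% and 1.85% of all names were. Among the 17 averaging at least 5 RPM with 0.5 to 4 RPM of input, 2 were lower and 0 higher. BMP4, which patterns mesoderm, had 9.88 RPM in wild type, 10.1 RPM in EZH2-/+, 0.59 RPM in EZH2-/- cells and 2.86 RPM in restored cells. WNT3, needed for the primitive streak, had 20.5, 17.2, 0.83 and 7.38 RPM in that order. MIXL1, a mesendoderm factor, had 7.77, 4.47, 0.68 and 3.01 RPM. The 15 core pluripotency factors had the lowest median of all lists, -0.60 (-0.34 relative to the shift), but only 3 of them averaged at least 5 RPM, and DPPA4 was higher (0.50 against 1.98 RPM) at a level near that of unmarked windows. Chromosome 19 zinc finger genes (262 names, median 0.06) and clustered protocadherins (53 names, 0.01) were at 3.16 and 2.60 RPM in wild type and at 4.55 and 3.25 RPM in EZH2-/-, so that there the knockout did not have the lowest level. Cytosolic ribosomal protein genes (83 names, -0.18), which lack the mark, followed the shift of unmarked windows.

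**Figure D3:**
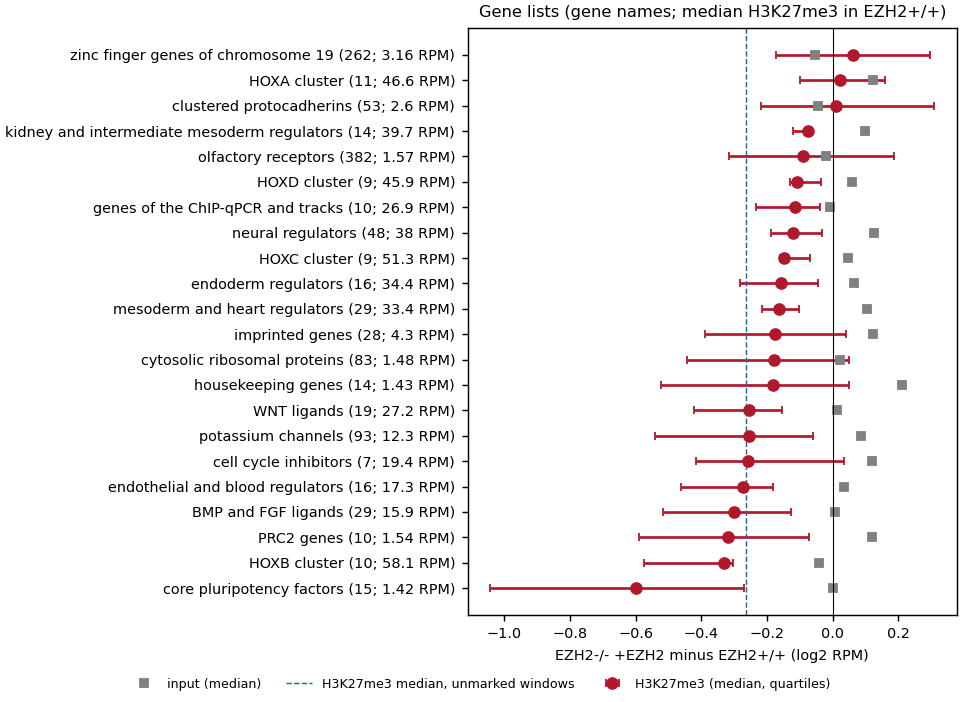
Difference, EZH2-/- +EZH2 minus EZH2+/+ (x axis, log2 RPM), for 22 gene lists, with the number of gene names and the median H3K27me3 level in EZH2+/+ beside each list. Red circles and bars are the median and quartiles of H3K27me3, grey squares the median of input, and the dashed line is the median of unmarked windows (-0.26). HOXA (0.02) and the chromosome 19 zinc finger genes (0.06) are at the top and core pluripotency factors (-0.60) at the bottom.

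The largest single differences are described among 5862 gene names whose window averaged at least 5 RPM of H3K27me3 over both genotypes and 0.5 to 4 RPM of input. By coincidence 5862 gene names also had a marked window in EZH2-/+, and 5444 names were in both sets. Of the 5862, 293 (5.0%) were lower and 72 (1.23%) higher by 1 or more in restored cells. With the shift of unmarked windows removed, the marked names gave 86 lower and 79 higher in place of 240 and 43. Chromosome 17, where input was also lower, held 420 of the 5862 names, and 50 of these (11.9%) were lower by 1 or more. These 50 are among the 293 names described below.

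The 12 largest decreases ran from -2.41 to -3.20. Wild-type levels were 9.18 to 20.7 RPM, restored levels 1.26 to 2.68 RPM and input 0.969 to 1.80 RPM in either genotype, so that in restored cells these windows were close to input. The choice by difference and by a mean of 5 RPM itself favours a high wild-type and a low restored level. The counting error of each difference was 0.177 to 0.255, and input differed by -0.29 to 0.37. EZH2-/+ levels ranged from 1.49 to 12.5 RPM and were between those of wild type and restored cells in all 12.

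FAM20A, which encodes a pseudokinase of the secretory pathway needed for enamel, gave the largest decrease. Its window (chr17:68598889-68603889) had 13.9 RPM in wild type, 9.31 RPM in EZH2-/+, 1.69 RPM in EZH2-/- cells and 1.51 RPM in restored cells. Only part of the gene's 7 start-site windows showed this, since their differences ran from -3.20 to 0.24. TDGF1 encodes a co-receptor of NODAL and marks undifferentiated ESCs, and its window had 11.2, 2.07, 1.86 and 1.26 RPM in the same order. The low level of TDGF1 in EZH2-/+ as well as in restored cells places wild type alone on the high side.

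The other decreases differed in their EZH2-/+ level. LCNL1, a lipocalin-like gene (10.9 RPM in wild type and 1.49 RPM in EZH2-/+), PLA2G16, a phospholipase (10.6 and 2.33 RPM), and the non-coding gene AP000711.1 (20.7 and 3.23 RPM) were low in EZH2-/+ like TDGF1, although the TDGF1 windows varied from -3.15 to -0.24. ECE2, an endothelin-converting enzyme, kept 12.5 RPM in EZH2-/+ against 13.2 RPM in wild type and 2.33 RPM in restored cells, and SIPA1, a Rap GTPase-activating protein, had 9.37, 11.2 and 2.11 RPM. ETV4, a transcription factor of the ETS family, and RP11-392O1.4 share most of their windows on chromosome 17 and were at 11.2 and 9.18 RPM in wild type, 4.00 and 3.23 RPM in EZH2-/+ and 2.05 and 1.67 RPM in restored cells. GALNT3 had 9.85 RPM in wild type, 2.85 RPM in EZH2-/+, 3.28 RPM in EZH2-/- cells and 1.82 RPM in restored cells. AJ011932.1 and CTD-2035E11.4, both non-coding, complete the 12 with 9.52 and 9.89 RPM in wild type, 4.17 and 6.18 RPM in EZH2-/+ and 1.64 and 1.66 RPM in restored cells.

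Some windows not among those used for the gene names differed as much and were chosen after their values were seen. Windows of LIME1, an adaptor of lymphocyte signalling, had 7.24 RPM in wild type and 0.725 RPM in restored cells (-3.32), below the level rule. Windows of RIPK3, a kinase of necroptosis, had 29.9 RPM in wild type, 32.3 RPM in EZH2-/+ and 3.65 RPM in restored cells (-3.03), with an H3K4me3 difference of -2.07. They averaged 16.8 RPM or less and are not among the 12 because another RIPK3 window, with a higher mean, stood for the gene.

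The 12 largest increases ran from 2.35 to 3.29 and lay mostly near chromosome ends. Of these, 11 were within 5 Mb and 10 within 2 Mb of an end, on 6 chromosomes, and 15.9% of the 5862 names were within 5 Mb. They had 1.65 to 7.27 RPM in wild type, 0.887 to 7.43 RPM in EZH2-/+ and 9.73 to 41.7 RPM in restored cells. The choice by difference and by a mean of 5 RPM itself favours a low wild-type and a high restored level. EZH2-/+, which took no part in the choice, lay between the other genotypes at 4 of the 12 names, each time nearer to wild type, and 2 of the 12 were marked in EZH2-/+. Wild-type EZH2 occupancy was 0.0429 to 0.537 RPM, and input differed by -0.26 to 0.41.

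SCNN1D, the delta subunit of the epithelial sodium channel, had the largest increase, with 1.65 RPM in wild type, 1.12 RPM in EZH2-/+, 1.48 RPM in EZH2-/- cells and 16.1 RPM in restored cells. SSTR5 had 2.67, 1.87, 0.57 and 23.6 RPM in the same order, and RASA3, a GTPase-activating protein for Ras, 2.69, 1.74, 0.93 and 17.9 RPM. LRCOL1, a colipase-like gene near the end of chromosome 12, was already marked in wild type at 7.27 RPM and reached 41.7 RPM in restored cells, within the range of the HOX clusters. TMEM175, a lysosomal potassium channel, had 2.35 RPM in wild type and 13.2 RPM in restored cells. Other windows of these genes differed less. The 20 TMEM175 windows had a median of 0.10 and the 9 SCNN1D windows one of 0.53. The 2 RASA3 windows had differences of 0.26 and 2.74. The windows used for RASA3, LRCOL1 and TMEM175 do not contain the RefSeq promoters of these genes. NPIPA1 (1.84 and 9.73 RPM) belongs to a family of near-identical copies on chromosome 16 and is uncertain, and the other 6 names were AC005481.5, AC006372.5, RP11-161M6.5, RP11-616M22.1, RP11-616M22.2 and RP11-805I24.3, of which RP11-616M22.1 and RP11-616M22.2 have overlapping windows.

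H3K27ac was higher at most names with lower H3K27me3. At the 293 names with lower H3K27me3, the median H3K27ac difference was 0.36 and 79.2% were above 0, against a median of -0.05 and 45.9% among all 5862. At the 72 names with higher H3K27me3, the median was -0.38 and 26.4% were above 0. Of these, 28 within 5 Mb of a chromosome end had a median of -0.61 with 0 above 0, and the other 44 had a median of -0.14 with 43.2% above 0, close to the 45.9% of all 5862. Counted past 1, 16 of the 293 were higher in H3K27ac, where 1.23% of the 5862 were, and 3 of the 72 were lower, where 1.96% were. H3K4me3 differed by medians of 0.12 and 0.42, with 0.07 among all, in the shallow wild-type column. Of the 72 names, 15 were higher by 1 or more in H3K4me3, where 2.66% of the 5862 were.

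In a small group H3K4me3 was lower as well. This held for 16 of the 293 names, in which H3K4me3 was lower by 1 or more (0.955% of the 5862 were). They had medians of -1.45 for H3K4me3, -0.64 for H3K27ac and -1.35 for H3K4me1, a mark of enhancers, although H3K27ac was above 0 in 4 of them. They had a median of 125 CpG dinucleotides per window, against 188 among the 5862. GALNT3 had the lowest H3K4me3 difference of the 16, -3.01. The names are fewer loci, since GALNT3 and AC009495.2, GABRA2 and RP11-436F23.1, and GABRA4 and GABRB1 have nearly the same windows. The group held the GABA receptor subunit genes GABRA2, GABRA4 and GABRB1, the glutamate receptor subunit gene GRIK1, the adhesion molecule gene NCAM2, and CHODL, a lectin gene, with GRIK1, NCAM2 and CHODL on chromosome 21. Input at these windows differed by 0.55 for GABRA2, 0.16 for GABRA4, 0.24 for GABRB1, 0.49 for GRIK1, 0.30 for NCAM2 and -0.59 for CHODL. The 12 GABRA2 windows ran from -1.05 to 1.36 with a median of -1.02. The 5 NCAM2 windows ran from -1.19 to 1.96 with a median of 1.48, so that most of them had more H3K27me3. The genes GABRA4, GABRB1 and CHODL, like others of the 16, were picked out after their values were seen. Of the 8 names tested for RNA, 4 were lower and 0 higher, where 14.7% and 2.82% of the 4322 tested among the 5862 were.

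RNA was compared between restored cells and wild type with limma on log2(RPM + 0.1), adjusted by the Benjamini-Hochberg method, and calls are those with an adjusted p under 0.05. Among 20608 genes tested, 701 (3.4%) were higher and 1422 (6.9%) lower in restored cells. The counts depended on the fit, being 1290 (6.26%) and 3321 (16.1%) when same-numbered libraries were treated as blocks and 953 and 910 after rescaling by median ratios, since the median change over all genes was -0.15. They also depended on single libraries, and were 340 and 551 without wild type 1, 379 and 666 without wild type 2, 342 and 786 without restored 1 and 328 and 585 without restored 2. The paper calls the 3 RNA libraries of each line biological replicates. Nothing in the labels says that they came from separate cultures, so these p-values measure the spread between libraries.

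RNA calls among the names with the largest differences went mostly opposite to H3K27me3. Of the 293 lower names, 235 were tested for RNA, and 54 of these (23%) rose and 9 (3.83%) fell, where 2.82% and 14.7% of the 4322 tested among the 5862 names did. With the block 84 rose, and without wild type 1, wild type 2, restored 1 or restored 2 the count was 34, 34, 31 and 30. Of the 72 higher names, 46 were tested, and 26 (56.5%) fell and 0 rose. With the block 32 fell and 2 rose, and without wild type 1 or restored 2 the count that fell was 17 and 16. The median RNA change was 0.48 for the lower and -1.13 for the higher names, and -0.31 among the 4322.

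Grouped by RNA, the 122 of the 5862 names whose RNA rose had a median H3K27me3 difference of -0.91, and 44.3% of them were lower by 1 or more. The 637 whose RNA fell had a median of -0.03 with 4.08% higher by 1 or more, and the 3563 that were not called had -0.33. The groups depended on the fit, with 227 and 1091 names under the block. They held 67 and 282 names without wild type 1, 68 and 360 without wild type 2, 66 and 374 without restored 1 and 55 and 317 without restored 2. In EZH2-/- the median level was 0.792, 0.856 and 0.796 RPM in the same groups.

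**Figure D4:**
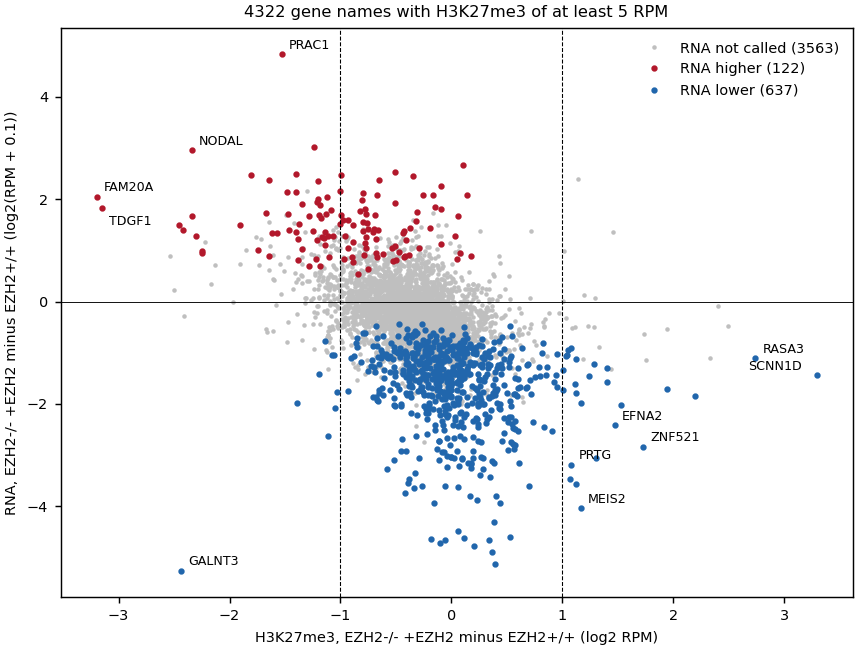
RNA change (y axis, log2(RPM + 0.1)) against H3K27me3 difference (x axis, log2 RPM), EZH2-/- +EZH2 minus EZH2+/+, for the 4322 gene names tested for RNA among the 5862. Red points are the 122 names called higher in RNA, blue points the 637 called lower and grey points the rest, and dashed lines mark 1 log2 unit of H3K27me3. Called increases lie mostly left of 0 and the names right of the right-hand line include 26 called lower and 0 called higher, while GALNT3 (lower left) lost both.

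The genes described next were lower in H3K27me3 and higher in RNA. FAM20A RNA was 10.3, 7.05 and 9.20 RPM in wild type and 51.7, 34.5 and 27.2 RPM in restored cells, a change of 2.05 ± 0.25 (SE, limma adjusted p = 0.000572). TDGF1 RNA was 67.4, 60.6 and 73.0 RPM in wild type and 253, 227 and 228 RPM in restored cells (1.82 ± 0.21, limma adjusted p = 0.000429). For both genes every restored library was above every wild-type library. PRAC1 RNA was 0.0444, 0 and 0 RPM in wild type, 2 reads in all, and 4.91, 2.14 and 2.88 RPM in restored cells (limma adjusted p = 4.25e-05), and PRAC2 had 0.0444, 0 and 0.175 RPM and 2.88, 0.804 and 0.679 RPM (limma adjusted p = 0.00357).

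CAV1 and CAV2, neighbouring genes for the coat proteins of caveolae, rose together. CAV1 had 3.69, 7.20 and 5.62 RPM in wild type and 31.4, 32.5 and 21.0 RPM in restored cells (limma adjusted p = 0.00752), and CAV2 had 0.4, 0.913 and 0.743 RPM and 3.73, 3.43 and 2.72 RPM (limma adjusted p = 0.00357). H3K27me3 was 7.93 and 11.1 RPM at their windows in wild type and 2.54 and 5.56 RPM in restored cells. ETS1, a transcription factor, rose by 2.14 ± 0.38 (limma adjusted p = 0.00434), from 7.18 to 8.10 RPM to 23.9 to 50.8 RPM. BMP4 rose by 1.69 ± 0.33 (limma adjusted p = 0.0072), NEURL1, a ubiquitin ligase of the Notch pathway, by 2.35 ± 0.42 (limma adjusted p = 0.00467) and the non-coding LINC01405 by 2.15 ± 0.29 (limma adjusted p = 0.00101). Of the CAV2 windows only some were lower, since the 10 ran from -1.12 to 0.84 with a median of 0.15. CDKN2A rose by 2.07 ± 0.32 (limma adjusted p = 0.00227). The H3K27me3 difference of its window used here, -0.26, equalled the shift of unmarked windows. Its 14 windows ran from -1.11 to -0.26 with a median of -0.32, so that the window used was the least reduced.

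Some increases did not pass with every library left out in turn. NODAL RNA was 11, 9.46 and 4.15 RPM in wild type and 99.2, 64.4 and 33.0 RPM in restored cells (2.96 ± 0.80, limma adjusted p = 0.033), while its window had 20.7 RPM of H3K27me3 in wild type, 10.9 RPM in EZH2-/+ and 4.09 RPM in restored cells. Its limma adjusted p was 0.07, 0.0805 and 0.107 without wild type 1, 2 and 3, and 0.118 and 0.107 without restored 1 and 2. ETV4 (28.2 to 32.0 RPM against 54.0 to 122 RPM) had a limma adjusted p of 0.032, and 0.0914, 0.0862 and 0.0822 without wild type 1, 2 and 3, and 0.123 and 0.113 without restored 1 and 2. HOXB13 (0.0254 to 0.0666 RPM, at most 3 reads per library in wild type, against 0.280 to 1.31 RPM) had 0.0217, and 0.0601, 0.0809 and 0.0532 without wild type 1, 2 and 3 and 0.0694 without restored 1. In each case the lowest restored library was above the highest wild-type library.

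Other named genes had more H3K27me3 and less RNA. MEIS2 RNA was 26.5, 40.4 and 21.0 RPM in wild type and 1.62, 0.75 and 3.44 RPM in restored cells (-4.03 ± 0.62, limma adjusted p = 0.00227). Its window had 8.91 RPM of H3K27me3 in wild type, 22.7 RPM in EZH2-/+ and 20 RPM in restored cells, so that here wild type alone was low. PRTG, encoding the adhesion protein protogenin, had 205, 329 and 73.9 RPM of RNA in wild type and 22.8, 18.4 and 15.6 RPM in restored cells (limma adjusted p = 0.00118), with 8.21 RPM of H3K27me3 in wild type, 23.3 RPM in EZH2-/+ and 17.4 RPM in restored cells. ZNF521, a zinc finger factor of early neural cells, had 38.9, 41.0 and 24.6 RPM of RNA in wild type and 4.50, 3.97 and 5.72 RPM in restored cells (limma adjusted p = 0.000182). Its H3K27me3 was 2.59 RPM in wild type, 6.69 RPM in EZH2-/+ and 8.59 RPM in restored cells.

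MN1, a transcriptional co-regulator, had 60.4, 37.5 and 35.8 RPM of RNA in wild type and 10.2, 8.66 and 13.5 RPM in restored cells, and EFNA2 had 5.79, 3.47 and 3.67 RPM and 0.771, 0.858 and 0.52 RPM. H3K27me3 was 6.92 and 9.26 RPM at their windows in wild type and 20 and 25.7 RPM in restored cells. MN1 fell by 2.02 ± 0.26 on the log2 scale (limma adjusted p = 0.000835), EFNA2 by 2.42 ± 0.35 (limma adjusted p = 0.0016) and SALL1, a kidney and neural factor, by 1.11 ± 0.21 (limma adjusted p = 0.00628). TSHZ2, a zinc finger homeobox gene, went from 1.51, 4.21 and 0.350 RPM to 0.0257, 0 and 0.0799 RPM (limma adjusted p = 0.00605), and HOXA2, whose H3K27me3 differed by 0.39 only, from 2.53, 4.67 and 1.14 RPM to 0.103, 0 and 0 RPM (limma adjusted p = 0.00161). The 4 TSHZ2 windows ran from -0.44 to 1.07 with a median of -0.34, so that the increase was not shared by all of them. The neural factors OLIG3 (47.5 to 83.8 RPM against 1.58 to 15.5 RPM, limma adjusted p = 0.0258) and SOX21 (25 to 60.5 RPM against 7.34 to 12.2 RPM, limma adjusted p = 0.0323) also fell. For OLIG3 the limma adjusted p was 0.0639, 0.0838, 0.0722, 0.0644 and 0.116 without wild type 1, 2, 3, restored 1 and restored 2, and for SOX21 it was 0.129, 0.0778, 0.0772 and 0.129 without wild type 1, wild type 3, restored 1 and restored 2. Neuroectoderm markers were lower in the same restored libraries (sums of 1.47 to 2.44 RPM against 8.19 to 20.2 RPM), and their part was not tested.

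Increases near chromosome ends had lower medians of H3K27me3 in EZH2-/+ and of wild-type EZH2 occupancy than those elsewhere. This difference was not tested, and the wild-type and restored levels took part in the choice of the names. The 28 higher names within 5 Mb of an end, 38.9% of the 72 against 15.9% of the 5862, had medians of 3.64 RPM in wild type, 2.89 RPM in EZH2-/+ and 16.6 RPM in restored cells. The 44 names farther inside had 4.55 RPM in wild type, 6.55 RPM in EZH2-/+ and 10.8 RPM in restored cells. EZH2 occupancy in wild type was 0.236 and 0.644 RPM. RNA was tested for 12 of the 28 and 34 of the 44, and 6 and 20 of these fell. Among the 12 largest increases, RASA3 RNA fell from 17.1, 15.8 and 13.1 RPM to 6.79, 7.50 and 6.75 RPM (-1.11 ± 0.18, limma adjusted p = 0.00293). SCNN1D went from 2.04, 2.41 and 2.67 RPM to 0.72, 0.75 and 0.959 RPM with a limma adjusted p of 0.0423, which was 0.0932, 0.120 and 0.109 without wild type 1, 2 and 3 and 0.120, 0.131 and 0.0561 without restored 1, 2 and 3.

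Less H3K27me3 did not go with more RNA everywhere. GALNT3 RNA was 2.97, 5.15 and 4.30 RPM in wild type and 0.0257, 0 and 0 RPM in restored cells, 1 read in all (limma adjusted p = 2.43e-05), and was also low in EZH2-/- at a mean of 0.0293 RPM. ECE2 had 10.3, 8.77 and 10.3 RPM in wild type and 11.4, 10.3 and 12.8 RPM in restored cells (limma adjusted p = 0.436), and SIPA1 had 17.8 to 20.1 RPM and 12.9 to 17.1 RPM (limma adjusted p = 0.401). The 11 SIPA1 windows ran from -2.41 to -0.03 with a median of -0.66, and the window used does not contain the RefSeq promoter of SIPA1. The windows used for RASA3, TMEM175, LRCOL1, NPIPA1, NCAM2, CDKN2A and CDKN2B also do not contain the RefSeq promoters of these genes. GRIK1 (0.459 to 1.15 RPM against 0.0771 to 0.200 RPM) had a limma adjusted p of 0.0093, or 0.0526 without wild type 1. NCAM2 (0.503 to 0.761 RPM against 0.0514 to 0.280 RPM) had 0.024, and 0.0733, 0.101, 0.0856 and 0.0536 without wild type 1, wild type 2, restored 1 and restored 2, but most of its windows had more H3K27me3. DEAF1, a transcription factor with windows in both directions (-1.36 to 1.35), fell by 0.77 ± 0.13 on the log2 scale (limma adjusted p = 0.00401).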

How the data were processed

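Native ChIP-seq after MNase digestion (histone marks and input) and non-directional mRNA-seq were analysed from tables of log2 values that the authors deposited, log2 RPM per start-site window and per gene. Per the labels, reads had been trimmed with Trim Galore 0.4.0 and aligned to GRCh38 with Bowtie2 2.2.5 (ChIP-seq) or TopHat2 2.0.12 (RNA-seq). Low values lay on the steps of a mean of 2 libraries in every histone and input column (tolerance 0.02 on the product of their reads), and the labels name 2 replicates where the study's methods speak of 3. The depths and counting errors rest on 2. Windows without reads had been set to 0.9 reads. Depth was recovered from these steps, and the counting error of a difference assumes equal depth of both libraries and covers counting error only. RNA reads of overlapping or antisense genes cannot be told apart.

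Names that the table gave as spreadsheet dates were restored in 298 windows. For each gene name, the window with the highest mean of both genotypes was used. RNA was fitted with limma 3.58.1 (R 4.3.3, lmFit and eBayes with trend) on log2(RPM + 0.1) over all 12 libraries, keeping genes that averaged 0.1 RPM or more, with Benjamini-Hochberg adjustment, and was tested on simulated data. A count test was not used because the deposited unit is log2. Deviations of same-numbered wild-type and restored RNA libraries correlated at 0.43, 0.11 and 0.42. Restored 2 correlated more with wild type 1 (0.21) than with wild type 2, and the remaining differently numbered libraries had correlations below 0. The study names no block, so the calls come from the fit without one. Counts with same-numbered libraries as blocks are given where they differ.

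The windows compared and the gene lists were chosen with earlier results of these data known. Named genes were the 12 largest decreases and increases, the example genes of the study, the extremes of each list, the HOX genes, and up to 10 names per direction that passed both in H3K27me3 and in RNA. Promoter sequences came from RefSeq (GRCh38.p14), and CpG dinucleotides per window were counted in the GRCh38 genome. Distance to the chromosome end, library shares and values without chromosome 17 were added after the data were seen.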

Additional observations from a re-analysis of the deposited data

How the results depend on the processing

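Over all windows, the median H3K27me3 difference was -0.25 on log2(RPM + 0.1), -0.16 on log2(RPM + 1), -0.31 after subtraction of input and -0.26 without chromosome 17. Over marked windows it was -0.34 with the rule on wild type, -0.22 with the rule on restored cells, -0.27 on log2(RPM + 1), -0.38 after subtraction of input, -0.027 with centring on windows that are not marked, -0.28 without chromosome 17 and -0.27 with 1 window per gene name. Marked gene names lower by 1 or more numbered 240, and 440 with the rule on wild type, 108 with the rule on restored cells, 154 on log2(RPM + 1), 509 after subtraction of input and 86 with centring. Those higher numbered 43, and 23, 97, 25 and 79 with the rule on wild type, the rule on restored cells, log2(RPM + 1) and centring. The cause of these changes was not tested. Of 62 named genes, 56 kept their H3K27me3 direction in every alternative, and of 53 past 1, 36 were past 1 in every alternative.

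Genes higher in RNA numbered 701, and 1290 with the replicate block, 463 with no filter on low values and 328 to 776 with 1 library left out. Genes lower numbered 1422, and 3321 with the block, 910 with median-ratio scaling and 551 to 1283 with 1 library left out. All 37 named RNA calls passed with the block, 33 with scaling and 23 with every library left out in turn. The block changed no call of a named gene. With 1 column per genotype, ChIP-seq differences have no replicate check.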
